A study of Thermothelomyces thermophilus with 14 samples.

Results

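Adding xylobiose to cellobiose was examined by setting mycelium given both disaccharides (the group G2X2, 2% cellobiose and 2% xylobiose) against mycelium given cellobiose alone (the group G2, 2% cellobiose), across all genes. The comparison rests on 4 of the series' 14 libraries, chosen by their labels, with 2 libraries in each group. All came from the wild-type strain ATCC 42464 of Myceliophthora thermophila (also named Thermothelomyces thermophilus), a thermophilic filamentous fungus that breaks down plant cell walls. Pregrown mycelium was moved into 5 mL of Vogel's salts with the sugars in 24-well plates and collected after 4 h. For reference, mycelium was handled in the same way, per the labels, with no carbon source (NoCarbon2), with 2% xylobiose alone (X2), or with 1% glucose and 1% xylose (GX). The mixture held 4% sugar in all and the cellobiose cultures 2%, so an effect of xylobiose and an effect of more total sugar cannot be told apart in this comparison. The labels give no line other than the wild type, name no targeted gene, and do not say whether the paired libraries of a group came from separate cultures. The p-values therefore measure only the spread between replicate libraries, which may be technical. That spread was estimated over all 14 libraries of the series, not from these 4 alone.

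Cellobiose joins glucose units and is released from cellulose, and xylobiose joins xylose units and is released from xylan, the main hemicellulose of many plant walls. Filamentous fungi take up such short sugars, split them inside the cell, and respond to them with secreted enzymes that attack the polymer the sugar came from. In the related fungus Neurospora crassa the transcription factors CLR-1 and CLR-2 are needed for cellulase genes and a XYR-1 homolog for xylanase genes, while the repressor CRE-1 lowers such genes when easily used sugars are present. Gene names below are published assignments for these loci, given from general knowledge and not checked against an annotation. The count table and the reference table give locus identifiers only, so a gene without such a name is described by its values alone.

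The 4 libraries held between 17992946 and 20796105 counts assigned to genes. Levels are CPM, counts divided by library sizes scaled by TMM, and changes are log2 fold changes (G2X2 minus G2) ± standard error from edgeR's quasi-likelihood test, called at a Benjamini-Hochberg adjusted p below 0.05. Log2 CPM correlated across genes at r = 0.990 between the G2 libraries, 0.978 between the G2X2 libraries, and 0.939 to 0.952 between a G2 and a G2X2 library. The median absolute log2 difference between replicate libraries was 0.178 for G2, 0.285 for G2X2, 0.376 for NoCarbon2 and 0.384 for X2. Replicates of X2 (r = 0.969) and NoCarbon2 (r = 0.965) were thus the least alike of these groups. In bulk RNA a change in the share of one kind of hypha and a change of RNA per hypha cannot be told apart.

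Adding xylobiose raised 705 genes and lowered 603 of the 8567 tested. These are 8.23% called higher, 7.04% called lower and 15.3% called in either direction. Among called genes, not matched for level, the falls were the larger changes. Among the genes called lower, 432 changed at least 2-fold, 169 at least 4-fold and 50 at least 16-fold, against 412, 71 and 10 among those called higher. The median log2 fold change was -1.38 for genes called lower and 1.07 for genes called higher. The 2 sets differed in level: the median CPM over the 4 libraries was 98.9 for genes called higher and 38.8 for genes called lower. Rises too were larger at low level, with a median of 1.43 among those ranked 6001 to 8567 by mean CPM. As a description of the called sets, which were chosen on these values, the genes called higher took 12.5% of all CPM with cellobiose and 28.9% in the mixture, and those called lower 9.95% and 3.48%. With upper-quartile scaling the split turned, to 544 higher and 745 lower, while the median of all genes moved from 0.02 to -0.07. The split also turned with plate libraries only, to 506 higher and 528 lower, and without either cellobiose library. It did not turn in the other settings or without either mixture library. Leaving out a cellobiose library lowered the 1308 calls to 712 (replicate 1) or 409 (replicate 2), and leaving out a mixture library to 798 (replicate 1) or 817 (replicate 2).

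**Figure D1:**
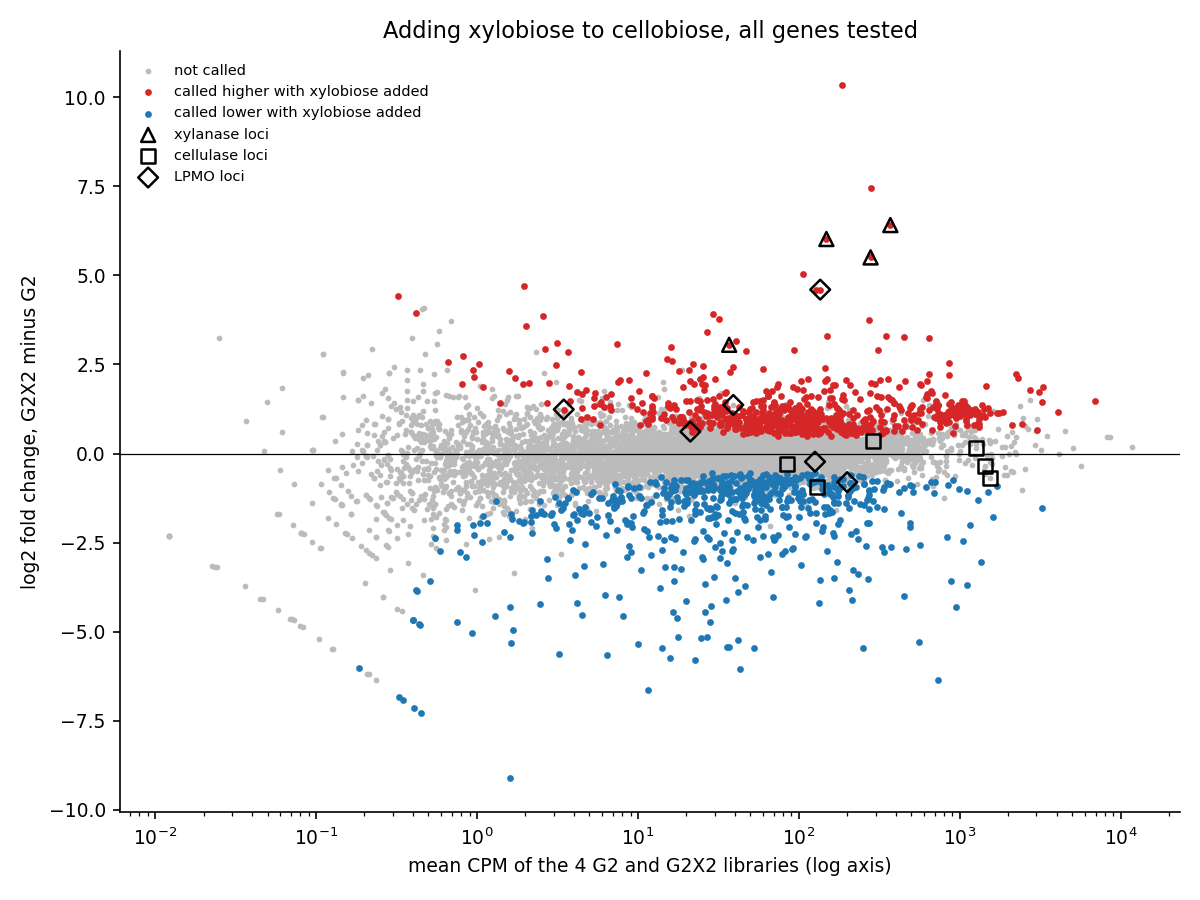
Log2 fold change of G2X2 against G2 (vertical axis) by mean CPM over the 4 libraries (horizontal log axis) for the 8567 genes tested, with the 705 genes called higher in red, the 603 called lower in blue and the xylanase, cellulase and LPMO loci marked by black outlines. The 4 xylanase loci (triangles) lie above 3, and the 6 cellulase loci (squares) lie between -0.94 and 0.34.

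The xylanase genes carried the clearest response among the listed loci. Xylanases cut the backbone of xylan. With cellobiose alone the xylanase locus Mycth_112050 stood at 10.7 and 6.50 CPM, and in the mixture at 658 and 808 CPM (6.41 ± 0.49, edgeR adjusted p = 1.71e-05). Mycth_49824 stood at 4.85 and 4.15 CPM with cellobiose and at 249 and 336 CPM in the mixture (6.02 ± 0.57, edgeR adjusted p = 5.04e-05). Mycth_89603 went from 11.3 and 12.8 CPM to 456 and 637 CPM (5.50 ± 0.51, edgeR adjusted p = 4.5e-05). Every mixture library was above every cellobiose library at these loci, an order that 32.6% of all genes also had. The fourth, Mycth_56237, responded least, from 7.66 and 8.21 CPM to 50.4 and 81.4 CPM (3.05 ± 0.36, edgeR adjusted p = 0.000217). All 4 of the 4 listed xylanase loci were called higher, beside 8.23% of all genes, with a median of 5.76 against 0.02 over all genes tested. The loci were listed with earlier results of these data known, so this share is a description only.

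The xylanase loci did not reach a common place between the single sugars. Xylobiose alone had Mycth_89603 at 5725 and 12636 CPM, above both mixture libraries (mixture minus xylobiose -4.07 ± 0.47, edgeR adjusted p = 0.000149). Mycth_49824 was at 704 and 2172 CPM with xylobiose alone, also above both (-2.30 ± 0.47, edgeR adjusted p = 0.00416). Over all genes 14.6% were called higher and 15.4% lower in the mixture than with xylobiose. The other two were not called there: xylobiose alone gave 410.0 and 1192 CPM for Mycth_112050 and 49.8 and 106 CPM for Mycth_56237, ranges that enclose those of the mixture. The departure from additivity is the change on adding xylobiose to cellobiose minus the change from no carbon to xylobiose. It was called for Mycth_89603 (-2.69 ± 0.61, edgeR adjusted p = 0.0105) and for 18.1% of all genes, 8.58% above 0 and 9.5% below. It was not called for the other 3 loci. With glucose and xylose the 4 loci stayed between 3.57 and 16.6 CPM.

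**Figure D2:**
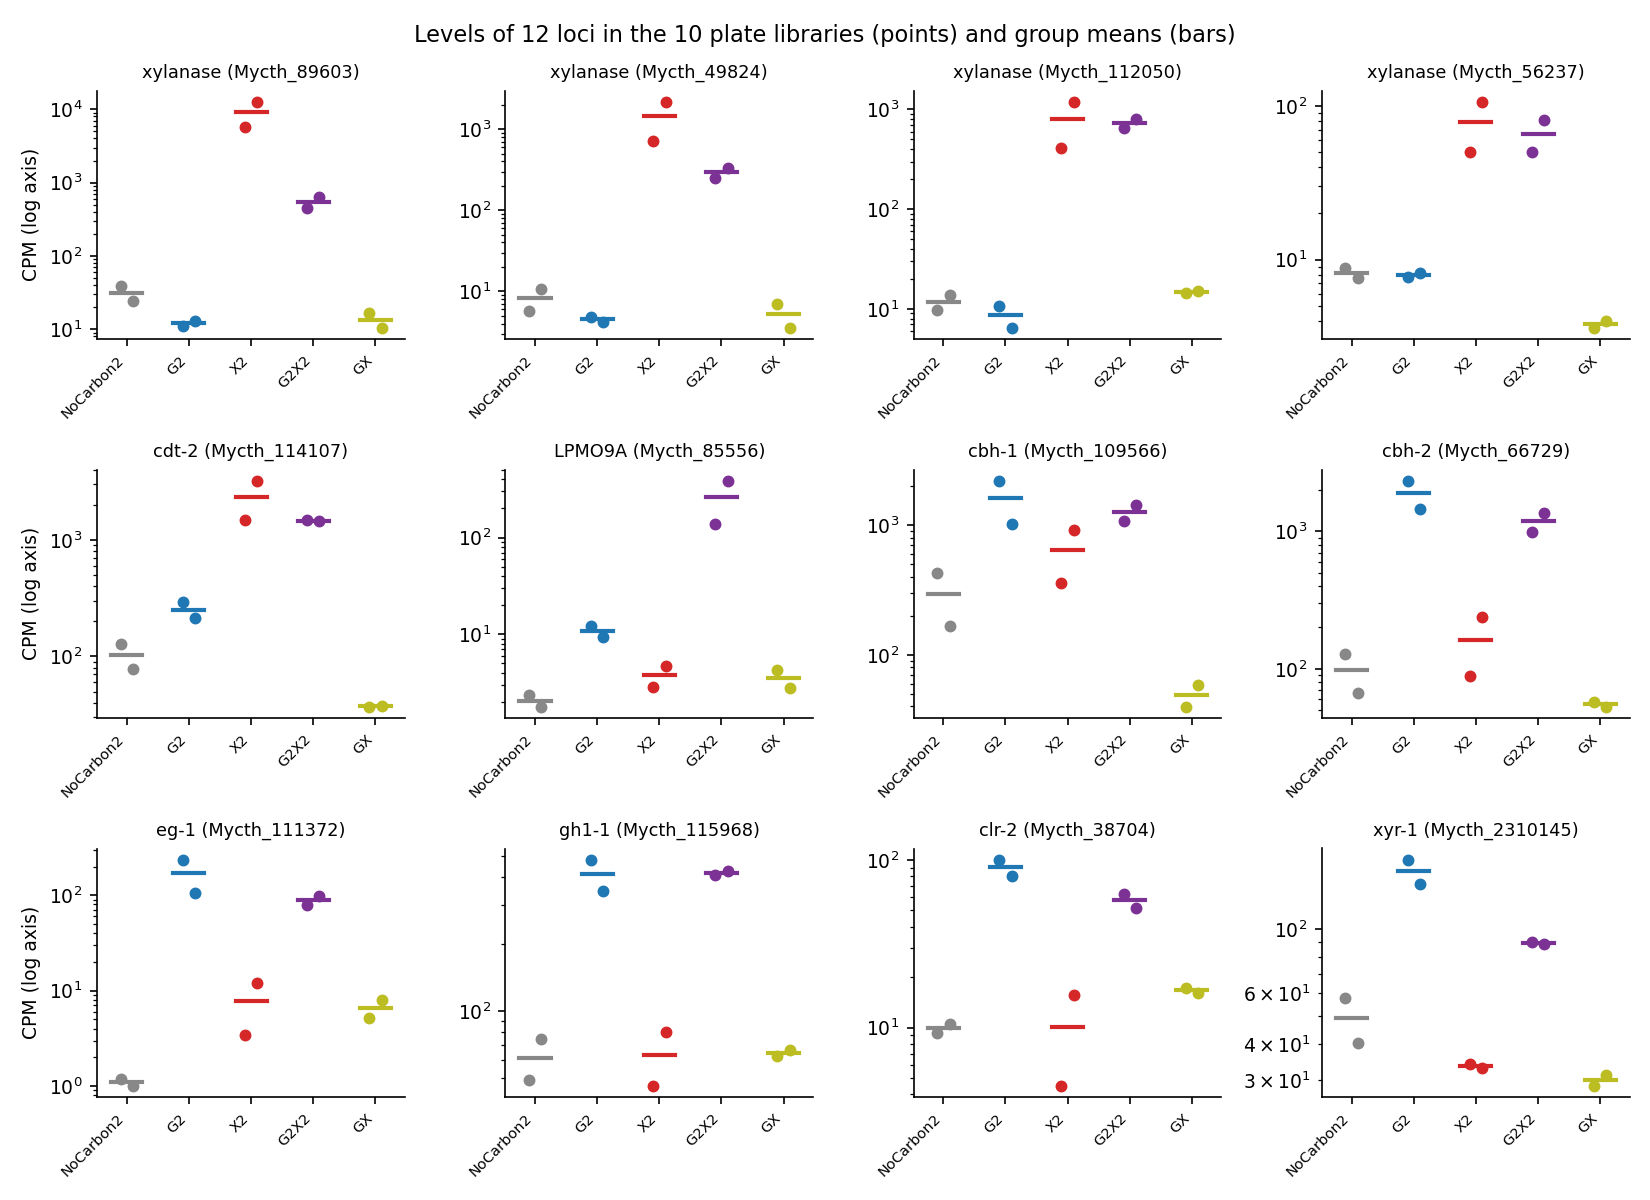
CPM (log axis, scaled separately in each panel) of 12 loci in the 10 plate libraries, with 1 point per library and a bar at each group mean. The xylanase loci and cdt-2 are high with xylobiose and in the mixture, the cellulase loci, gh1-1, clr-2 and xyr-1 are high with cellobiose and in the mixture, and LPMO9A is high in the mixture, at 136 and 386 CPM.

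Of the 5 listed loci for sugar uptake and intracellular hydrolysis, cdt-2 alone was called. With 15.3% of all genes called in either direction and 8.23% called higher, 1 call among 5 loci is near the background. The gene cdt-2 (Mycth_114107) encodes a cellodextrin transporter whose Neurospora crassa counterpart also carries xylodextrins. It stood at 293 and 212 CPM with cellobiose and at 1479 and 1443 CPM in the mixture (2.53 ± 0.41, edgeR adjusted p = 0.00154). Xylobiose alone gave 1467 and 3208 CPM, so the mixture was at the level of the lower of those libraries. The gene gh1-1 (Mycth_115968), for an intracellular beta-glucosidase that splits cellobiose, was at 479 and 347 CPM with cellobiose and 411 and 425 CPM in the mixture. Its log2 difference was 0.02, with a 95% interval from -0.63 to 0.66, and its sign changed with the scaling (-0.08 with upper-quartile scaling). Xylobiose alone left gh1-1 at 46.0 and 80.2 CPM, beside 48.8 and 74.4 CPM without carbon. The glucose transporter gene glt-1 (Mycth_108924) was lower in the mixture, at 46.2 and 122 CPM against 184 and 326 CPM, but was not called (-1.60 ± 0.55, edgeR adjusted p = 0.0690). It was called when G2X2 replicate 2 was left out (-2.46, edgeR adjusted p = 0.0419) or when only these groups entered the fit (edgeR adjusted p = 0.0438). It was -1.06 (edgeR adjusted p = 0.302) without G2X2 replicate 1 and -1.13 (edgeR adjusted p = 0.377) without G2 replicate 2. The arabinose transporter gene lat-1 (Mycth_95427) was at 13.1 CPM in each cellobiose library and at 10.1 and 7.29 CPM in the mixture, not called. The gene assigned as cdt-1 (Mycth_43941), the least sure of these names, stayed at or below 5.80 CPM in all 4 libraries.

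None of the 6 listed cellulase loci was called in either direction, a count near the background of 15.3% of all genes called. Cellobiohydrolases cut cellulose from chain ends, and cbh-1 (Mycth_109566) stood at 2199 and 1017 CPM with cellobiose and 1079 and 1431 CPM in the mixture, so the groups overlapped. Its log2 difference was -0.36, with a 95% interval from -1.57 to 0.86, and 0.30 without G2 replicate 1. For cbh-2 (Mycth_66729) all mixture libraries were below the cellobiose libraries, at 998 and 1365 against 2336 and 1468 CPM, but the interval of the log2 difference of -0.69, from -1.65 to 0.27, included 0. Without G2 replicate 1 this difference was -0.31. The endoglucanase gene eg-1 (Mycth_111372), whose product cuts within cellulose chains, was at 235 and 106 CPM with cellobiose and 78.7 and 98.9 CPM in the mixture (-0.94 ± 0.45, 95% interval from -1.93 to 0.04, edgeR adjusted p = 0.183), without overlap, as for 30.5% of all genes. Without G2 replicate 1 the difference was -0.26 (edgeR adjusted p = 0.805). The second endoglucanase gene, eg-2 (Mycth_86753), had the narrowest interval of the cellulase loci, from -0.52 to 0.83, with 1536 and 851 CPM against 1154 and 1503 CPM. The groups overlapped, and its sign turned without G2 replicate 2 (-0.21) or G2X2 replicate 2 (-0.05). The third, eg-45 (Mycth_76901), was at 118 and 67.3 CPM with cellobiose and at 55.9 and 94.9 CPM in the mixture, and the cellobiose dehydrogenase gene cdh (Mycth_111388) at 358 and 155 CPM and at 299 and 351 CPM. The groups overlapped at both, with 95% intervals from -1.08 to 0.49 for eg-45 and from -0.76 to 1.44 for cdh. The 6 loci had a median of -0.33, beside 0.02 over all genes.

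Lytic polysaccharide monooxygenases (LPMOs) cut polysaccharides by oxidation. Of the 6 listed LPMO loci, LPMO9A (Mycth_85556) was called, or 16.7%, beside 15.3% of all genes called in either direction and 8.23% called higher. It stood at 12.2 and 9.30 CPM with cellobiose, 2.83 and 4.73 CPM with xylobiose, and 136 and 386 CPM in the mixture (4.60 ± 0.49 against cellobiose, edgeR adjusted p = 0.000138). The mixture was above every library of each single sugar, and the departure from additivity was 3.74 ± 0.68 (edgeR adjusted p = 0.00372). The 2 mixture libraries differed between themselves by more than at any xylanase locus. The LPMO locus Mycth_80312 was higher in both mixture libraries, at 51.5 and 61.3 CPM against 29.9 and 14 CPM, without being called (1.36 ± 0.47, edgeR adjusted p = 0.0722). It was called with only these groups in the fit (edgeR adjusted p = 0.0184) and by DESeq2 (adjusted p = 0.0207). Mycth_92668 was also higher in both, at 4.08 and 5.65 against 2.18 and 1.94 CPM (edgeR adjusted p = 0.0932, or 0.0491 with only these groups in the fit). Mycth_112089 stood at 98.4 and 193 CPM in the mixture against 369 and 139 CPM. Mycth_46583 stood at 138 and 93.8 against 146 and 126 CPM, and Mycth_79765 at 13.5 and 37.8 against 22.8 and 10.7 CPM. The groups overlapped at these loci, and none of the 3 was called.

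The 4 regulator loci all had lower means in the mixture, and none was called, which with 15.3% of all genes called is near the background. Of the 8567 genes, 4436 were fitted above 0. The xylanase regulator gene xyr-1 (Mycth_2310145) was at 174 and 143 CPM with cellobiose and at 90.4 and 89.0 CPM in the mixture, without overlap (-0.82 ± 0.28, 95% interval from -1.43 to -0.22, edgeR adjusted p = 0.0649). It lay near the threshold. It was called with upper-quartile scaling (edgeR adjusted p = 0.0402), with the replicate block (edgeR adjusted p = 0.0476), with plate libraries only (edgeR adjusted p = 0.0257), with only these groups in the fit (edgeR adjusted p = 0.0102) and by DESeq2 (adjusted p = 0.0266). It was not called with DESeq2 size factors in edgeR, without the filter on low counts, or without any of the 4 libraries (edgeR adjusted p between 0.150 and 0.269). With xylobiose alone xyr-1 stood at 34.0 and 33.0 CPM. The cellulase regulator gene clr-2 (Mycth_38704) was at 100.2 and 80.4 CPM with cellobiose and 63.0 and 52.0 CPM in the mixture (edgeR adjusted p = 0.403, or 0.0312 with only these groups in the fit). Its partner clr-1 (Mycth_2298863) was at 69.1 and 78.2 against 57.6 and 43.1 CPM. The repressor gene cre-1 (Mycth_2310085) was at 408 and 434 CPM with cellobiose and at 298 and 315 CPM in the mixture (-0.46, 95% interval from -0.98 to 0.06). The alkaline protease gene alp-1 (Mycth_2303011) was at 561 and 484 CPM with cellobiose and 459 and 295 CPM in the mixture, not called. With xylobiose alone alp-1 stood at 1983 and 2710 CPM, and its departure from additivity was -2.16 ± 0.45 (edgeR adjusted p = 0.00691). In all, 6 of the 26 listed loci were called higher and 0 lower by edgeR, or 23.1% and 0%, beside 8.23% and 7.04% of all genes, with a median of -0.11 against 0.02. These shares too describe loci listed with earlier results of these data known.

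The 12 largest rises among called genes with at least 20 CPM in the mixture held 3 of the xylanase loci and LPMO9A. The other 8 have no name in the tables used. Mycth_100068 rose most: it had 0.437 and 0.135 CPM with cellobiose (9 and 3 counts) and 205 and 536 CPM in the mixture (10.33 ± 0.90, edgeR adjusted p = 3.28e-05). Xylobiose alone gave this gene 107 and 170 CPM, below both mixture libraries. That difference was not called (mixture minus xylobiose 1.42 ± 0.55, edgeR adjusted p = 0.0718). Mycth_2066457 went from 3.10 and 3.25 CPM to 454 and 662 CPM (7.45 ± 0.57), and it was higher still with xylobiose alone, at 876 and 2355 CPM. Mycth_96047 and Mycth_116553 had the same order of groups. Mycth_96047 stood at 6.21 and 6.41 CPM with cellobiose, 249.7 and 164 CPM in the mixture, and 536 and 890.1 CPM with xylobiose. Mycth_116553 stood at 45.6 and 30.8 CPM, 429.5 and 589 CPM, and 1759.6 and 2900.4 CPM in those groups.

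The other 4 large rises had other orders of groups. Mycth_2059428 was at 8.20 and 12.3 CPM with cellobiose, 12.6 and 28.3 CPM with xylobiose, and 277 and 213 CPM in the mixture (4.58 ± 0.70, edgeR adjusted p = 0.00129). Like LPMO9A it was highest in the mixture among the plate groups. Mycth_37570 was at 4.90 and 3.70 CPM with cellobiose and 53.0 and 65.8 CPM in the mixture (3.79 ± 0.24), but glucose with xylose gave 85.2 and 82.2 CPM. Mycth_89343 was low with cellobiose alone, at 3.44 and 3.79 CPM, against 42.8 and 66.9 CPM in the mixture (3.92 ± 0.33). The groups without cellobiose had this gene at 19.1 CPM or more in each library, including 46.1 and 25.1 CPM without carbon. Mycth_49210 likewise was lowest with cellobiose alone, at 3.98 and 5.23 CPM, and stood at 47.2 and 50.6 CPM in the mixture (3.41 ± 0.37). Its range with xylobiose alone, 43.7 to 96.5 CPM, enclosed that of the mixture. Each of the 12 rises was called under all 11 alternative settings and left-out libraries.

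The 12 largest falls, all genes without a name here, shared a pattern across the plate groups. Each was at its lowest mean in the mixture and at its highest mean with cellobiose alone. Part of this follows from choosing genes with a high level with cellobiose and a low level in the mixture. Mycth_2314555 was at 1059 and 1835 CPM with cellobiose, 344 and 608 CPM with xylobiose, 41.8 and 29.0 CPM without carbon, and 17.6 and 18.0 CPM in the mixture (-6.34 ± 0.62, edgeR adjusted p = 7.23e-05). Each disaccharide alone had it above the mixture. Mycth_110871 was at 1080.3 and 1099.6 CPM with cellobiose and 21.8 and 33.8 CPM in the mixture (-5.29 ± 0.43, edgeR adjusted p = 2.16e-05), with 276 and 107 CPM under xylobiose. Mycth_2298494 was at 359.9 and 616 CPM with cellobiose and 10 and 12.1 CPM in the mixture (-5.46 ± 0.60), beside 56.6 and 59.7 CPM without carbon. Mycth_2301682 fell from 15.1 and 30.5 CPM to 0 and 0.446 CPM (-6.64 ± 0.86, or -11.94 without G2X2 replicate 2, which left a library with no count). Mycth_2305739 was the gene among the 12 whose cellobiose level stood nearest to that without carbon, 26.3 and 35.5 against 19.6 and 21.7 CPM, and it was at 0.646 and 0.496 CPM in the mixture (-5.74 ± 0.55).

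The other 7, Mycth_2300099, Mycth_2305838, Mycth_2308149, Mycth_2299605, Mycth_77631, Mycth_83193 and Mycth_2307949, fell by 5.23 to 6.04 on the log2 scale, from 18.7 to 138 CPM in the cellobiose libraries to 0.447 to 3.58 CPM in the mixture libraries. In each of the 12 the second cellobiose library was higher than the first, by a small margin for Mycth_110871 and by more for Mycth_2300099, at 33.9 and 137 CPM. The calls did not rest on that library: all 12 falls were called without G2 replicate 2 and under the other 10 alternatives.

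**Figure D3:**
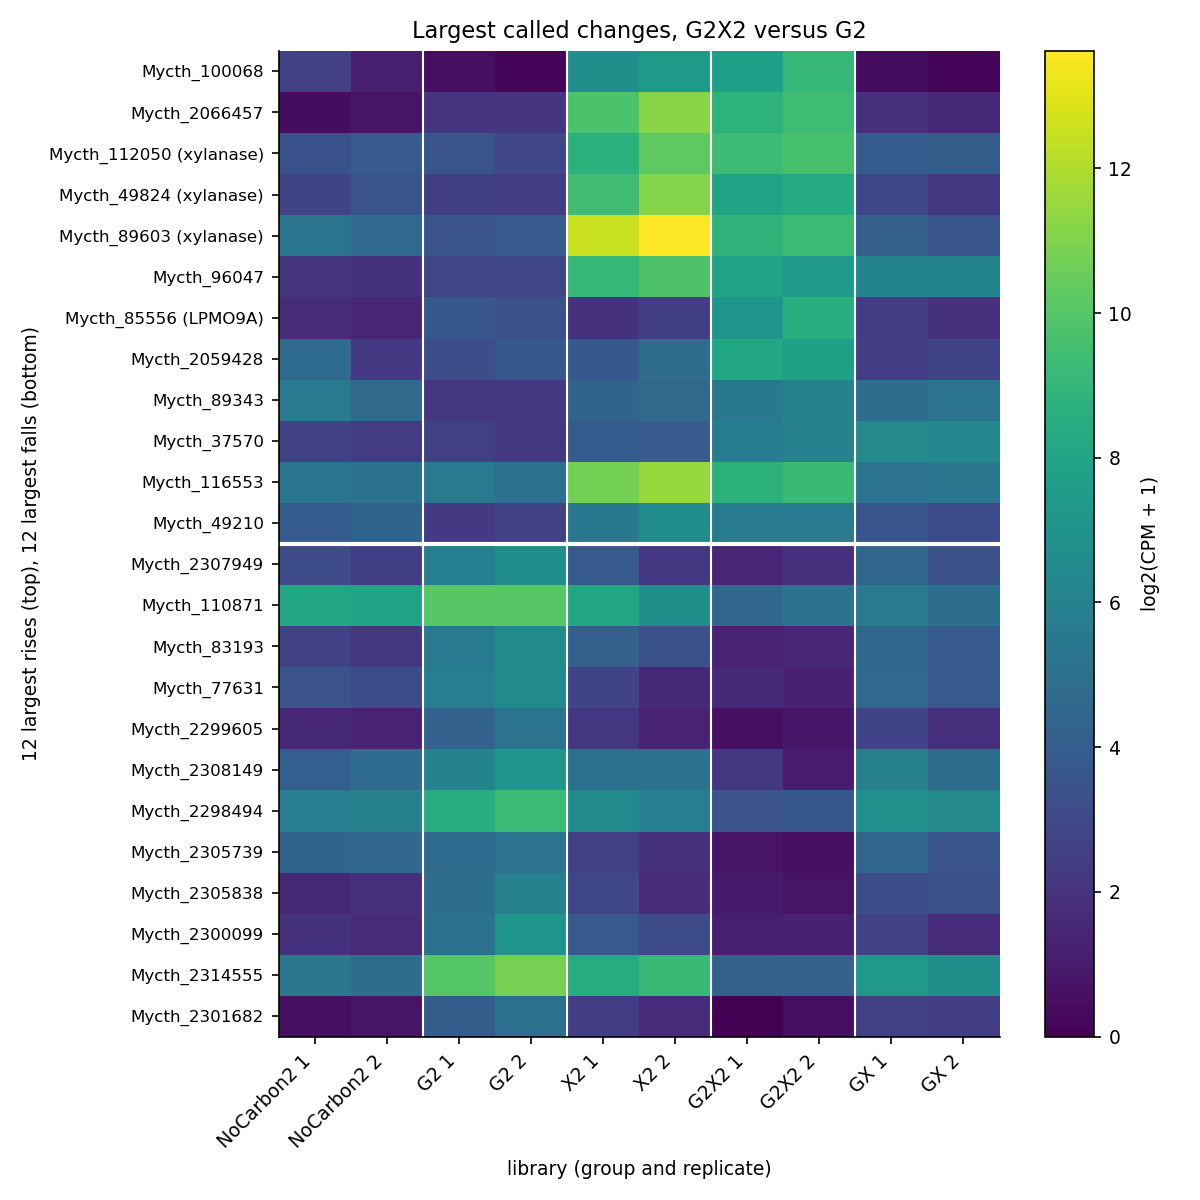
Log2(CPM + 1) in the 10 plate libraries (columns, 2 for each group) for the 12 largest rises (upper rows) and the 12 largest falls (lower rows) in G2X2 against G2. The lower rows are brightest in the G2 columns and darkest in the G2X2 columns, while most upper rows are bright in the X2 and G2X2 columns and LPMO9A and Mycth_2059428 are bright in the G2X2 columns.

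Genes called higher were a larger share of the abundant genes than of all genes. Genes were ranked by mean CPM over the 7 groups of the series, which is a ranking by read share, not per length, and includes the libraries compared. Of the 100 with the highest level, 35 were called higher and 4 lower, or 35.0% and 4.00%, beside 8.23% and 7.04% of all genes. Of the next 400 genes, 126 (31.5%) were called higher and 30 (7.5%) lower, and of the genes ranked 6001 to 8567, 81 (3.16%) and 177 (6.90%). The called rises had a median of 1.16 in the top 100 and of 1.22 in the next 400, beside 1.07 over all called rises, with interquartile ranges of 1.04 to 1.40 and 1.02 to 1.41 on the log2 scale. The whole of the 100 most abundant genes had a median of 0.48, and the median with xylobiose against no carbon was 1.34. The share called lower showed no such order. Without G2 replicate 2 the genes called higher numbered 19 of the 100 and 61 of the next 400.

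**Figure D4:**
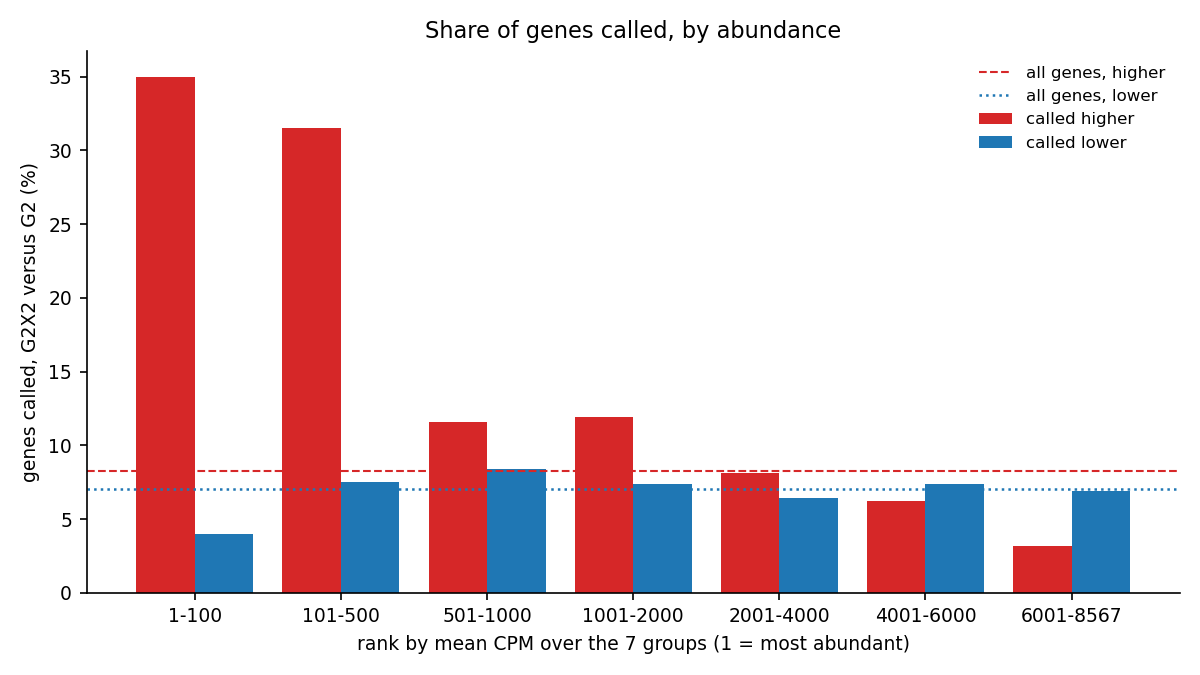
Percent of genes called higher (red) and lower (blue) in G2X2 against G2 by rank of mean CPM (horizontal axis, most abundant at the left), with dashed and dotted lines at 8.23% and 7.04% for all genes. The share called higher falls from 35.0% in the top 100 to 3.16% in the last class, and the share called lower stays between 4.00% and 8.40%.

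Xylobiose against no carbon gave the change with xylobiose where no cellobiose was present. It shares no library with the comparison above, although all were fitted together. It set 2% sugar against none, so an effect of xylobiose and one of having any sugar cannot be told apart there. The comparison with no carbon called 3308 genes, or 38.6% of those tested, with 19.1% higher and 19.5% lower. Of the 705 genes raised by adding xylobiose to cellobiose, 361 (51.2%) were also higher with xylobiose alone, 37 (5.25%) were lower and 307 were not called. The 361 are 22% of the 1640 genes that xylobiose alone raised. The lowered genes had less in common. Of 603, 181 (30%, and 10.9% of the 1668 that xylobiose alone lowered) were also lower with xylobiose alone, beside 19.5% of all genes. Another 91 (15.1%) were higher with xylobiose alone, beside 19.1% of all genes. Across the 8567 genes the fold changes correlated weakly (Pearson r = 0.27, Spearman rho = 0.33), as a description over genes, which are not independent replicates. The share of raised genes that xylobiose alone also raised was 30.8% with only the contrasted groups in each fit, where xylobiose against no carbon called 1506 genes, and 68.0% (119 of 175) without G2 replicate 2. It was 62.5% (207 of 331) without G2 replicate 1 and 53.7% (239 of 445) without G2X2 replicate 2. For lowered genes, leaving out G2 replicates 1 and 2 gave a shared count of 91 (23.9%) and 64 (27.4%), leaving out G2X2 replicates 1 and 2 gave 109 (31.8%) and 102 (27.4%), and leaving out X2 replicate 1 gave 275. With only the contrasted groups in each fit the share of lowered genes was 18.2%. The background of 19.5% does not apply to that share, as xylobiose against no carbon called 1506 genes there in place of 3308. The 37 genes higher here and lower with xylobiose alone became 16, 11, 19 and 24 without G2 replicates 1 and 2 and G2X2 replicates 1 and 2, and 56 without X2 replicate 1. The 91 with the opposite signs became 59, 34 and 45 without G2 replicate 1, G2 replicate 2 and G2X2 replicate 1.

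**Figure D5:**
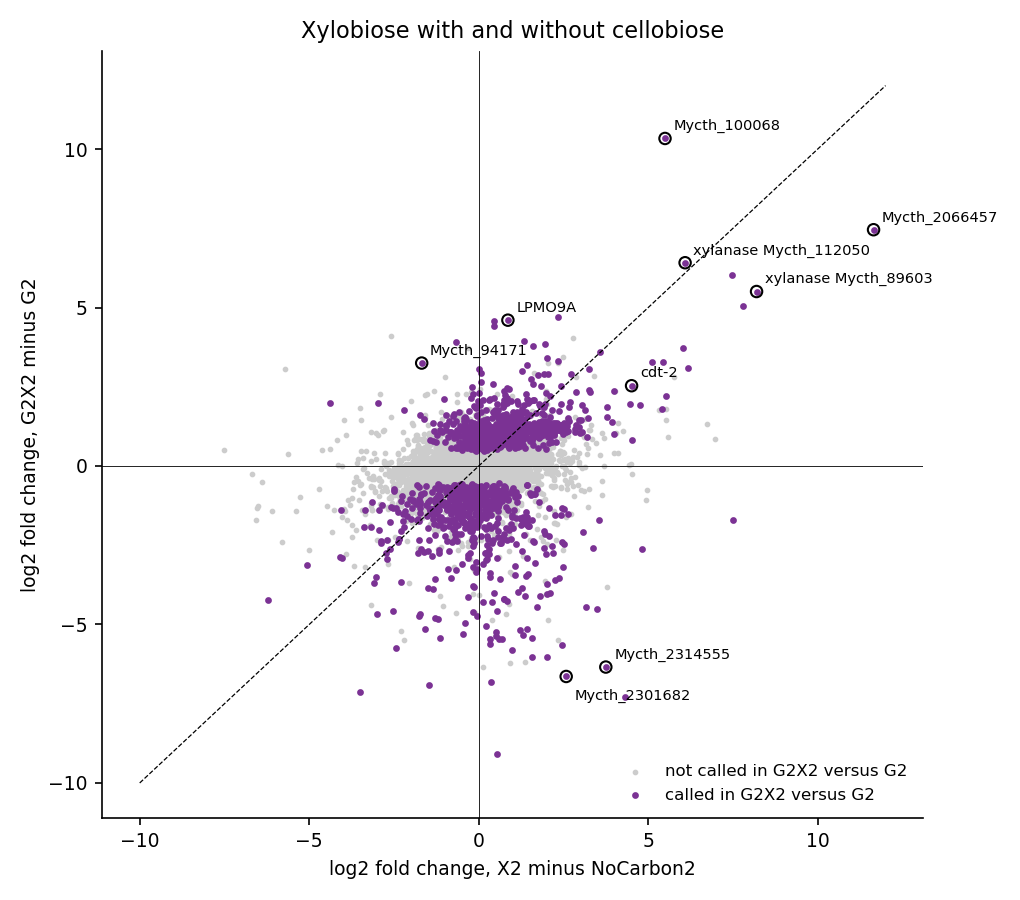
Log2 fold change of G2X2 against G2 (vertical axis) by that of X2 against NoCarbon2 (horizontal axis) for 8567 genes, with genes called in G2X2 against G2 in purple and a dashed line at equal change. The xylanase locus Mycth_112050 lies near the line, Mycth_89603 and cdt-2 below it, LPMO9A and Mycth_100068 above it, and Mycth_2314555 and Mycth_2301682 at the lower right, where the signs differ.

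Some called genes lay beside genes called the same way, by the gene order of the reference assembly. Of the tested neighbours of genes called higher, 13.3% (180 of 1354 positions) were called higher too, beside 8.23% of all genes, and 4.28% were called lower. Of the neighbours of genes called lower, 14.7% (166 of 1126 positions) were called lower, beside 7.04%, and 5.15% higher. Runs of at least 3 adjacent genes called the same way numbered 7 among rises and 14 among falls, and the longest held 4 genes. The strand setting of the counting is not stated, so reads shared by overlapping neighbours could add to this. Fewer genes were called without each library, and the counts of neighbours fell with them. For rises they were 62 of 635 positions (9.76%, with 3.82% of all genes called higher) without G2 replicate 1, 24 of 336 (7.14%, with 2.02%) without G2 replicate 2, 96 of 881 (10.9%, with 5.25%) without G2X2 replicate 1 and 84 of 857 (9.8%, with 5.14%) without G2X2 replicate 2. For falls they were 78 of 718 (10.9%, with 4.4% of all genes called lower), 46 of 436 (10.6%, with 2.7%), 60 of 644 (9.32%, with 3.96%) and 80 of 692 (11.6%, with 4.3%) in the same order. With plate libraries only, rises had 106 of 969 (10.9%, with 5.93%).

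A run of 4 adjacent genes that rose held members of unlike response. Mycth_2136549 went from 53.9 and 74.0 CPM to 671 and 600.0 CPM (3.31 ± 0.47, edgeR adjusted p = 0.000855), and Mycth_2055617 from 5.24 and 6.72 CPM to 28.8 and 30.9 CPM (2.32 ± 0.31). The changes of Mycth_62175 (0.89) and Mycth_2294738 (0.60) were smaller. The call of Mycth_62175 was lost without G2 replicate 1 (0.85), G2 replicate 2 (0.93) or G2X2 replicate 1 (0.67). That of Mycth_2294738 was lost without any of the 4 libraries (0.58, 0.62, 0.52 and 0.68, in the order above), with upper-quartile scaling, with the replicate block and with plate libraries only. A run of 4 falls surrounds Mycth_2299605, which went from 18.7 and 36.2 CPM to 0.447 and 0.793 CPM. Beside it, Mycth_2314307 fell from 26.3 and 62.5 CPM to 5.17 and 6.64 CPM (-2.91 ± 0.46) and Mycth_2299604 from 33.5 and 51.8 CPM to 11.9 and 12.2 CPM (-1.82 ± 0.33). The fourth, Mycth_2299606, went from 17.1 and 27.3 CPM to 3.38 and 5.55 CPM (-2.31 ± 0.63), a call lost without G2 replicate 1 (-2.61), G2 replicate 2 (-1.93), G2X2 replicate 1 (-2.001) or G2X2 replicate 2 (-2.71). The level of Mycth_2299605 in the mixture was thus below that of its neighbours in CPM, while its fold change was the largest of the run. Of the 3 runs of 4 falls, this run was described because it holds Mycth_2299605, a gene of the largest falls. Part of the contrast with its neighbours follows from that choice.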

How the data were processed

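RNA sequencing covered 14 libraries of wild-type mycelium in 7 groups of 2, grouped by sample title. The authors deposited raw counts of reads per gene. According to the submitters' processing notes, TopHat2 2.0.8b and HTSeq 0.13.5 were among the tools. Strand setting, annotation and genome build: not given in the sources used here, so close paralogs and overlapping genes may share reads. Of 9110 identifiers, 9087 matched a locus tag of the RefSeq gene table of assembly ASM22609v1, which was used for gene order only.

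The tests used edgeR 4.0.16 (R 4.3.3). With filterByExpr at a minimum count of 10, 543 of the genes were dropped, 153 of them without any count, and 8567 were tested. The robust quasi-likelihood model (TMM scaling) held 7 group means over all 14 libraries, leaving 7 residual degrees of freedom, and adjusted p-values run over all genes tested. Tests are two-sided. The script was checked on simulated counts.

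Named genes were the 26 listed loci, the 12 largest called rises and falls (at least 20 CPM in the higher group, no overlap between libraries), the 5 largest departures each way among genes also called here, and members of runs described. Loci and lists were chosen with earlier results of these data known. Lists that needed protein, promoter or product data were not run. Alternatives were DESeq2 1.42.0, other scalings, no filter, a replicate block, smaller fits and each library left out. Replicate numbers were not taken as pairs: deviations of same-numbered G2 and G2X2 libraries correlated at r = -0.05.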

Additional observations from a re-analysis of the deposited data

Results flagged for a closer look

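The change on adding xylobiose differed with and without cellobiose for 1549 of 8567 genes (18.1%) by the test of the difference itself, the departure from additivity in edgeR. Total sugar went from none to 2% without cellobiose and from 2% to 4% with it, so it enters this difference too. A fit to the 4 groups of this difference alone called 804. Leaving out G2 replicate 1 gave 930, G2 replicate 2 gave 778 and G2X2 replicate 1 gave 971.

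Values below are departures on the log2 scale, negative where the signed change on adding xylobiose was lower with cellobiose than without it. That covers a smaller rise, a fall in place of a rise, and a larger fall. An example of a larger fall is Mycth_2305739, at -2.45 without cellobiose and -5.74 with it. Of the listed loci below, eg-1, glt-1, alp-1, Mycth_80312, eg-2 and cre-1 were not called in G2X2 versus G2. Xylobiose against no carbon gave 2.80 for eg-1, 2.59 for glt-1 and 1.69 for alp-1. It gave 4.12 for Mycth_80312, 1.76 for eg-2 and 0.64 (not called) for cre-1. The gene eg-1 was low there, at 1.19 and 1.01 CPM without carbon and 3.43 and 12.1 CPM with xylobiose. Among listed loci the departure was -2.69 for the xylanase locus Mycth_89603, -3.74 for eg-1 (Mycth_111372), -4.18 for glt-1 (Mycth_108924), -2.16 for alp-1 (Mycth_2303011) and 3.74 for LPMO9A (Mycth_85556). It was -1.98 for cdt-2 (Mycth_114107), a call lost without NoCarbon2 replicate 2 (-1.67), G2 replicate 1 (-1.73), X2 replicate 2 (-1.30), G2X2 replicate 1 (-1.998) or G2X2 replicate 2 (-1.96). It was -2.76 for the LPMO locus Mycth_80312, with the call lost without G2 replicate 1 (-2.11) or G2X2 replicate 1 (-2.64) and a value of -1.63 without X2 replicate 2. It was -1.61 for eg-2 (Mycth_86753), lost with plate libraries only, in the smaller fit (-1.57 in each), and without NoCarbon2 replicate 2 (-1.31), G2 replicate 1 (-1.13), X2 replicate 2 (-1.28) or G2X2 replicate 1 (-1.43). It was -1.09 for cre-1 (Mycth_2310085), lost in the same 2 fits (-1.06 in each) and without any of 7 libraries of the 4 groups, NoCarbon2 replicate 1 being the exception (-0.74 to -1.18).

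Among the largest rises the departure was 4.84 for Mycth_100068 (4.21 and not called without G2 replicate 2), -4.19 for Mycth_2066457, -2.77 for Mycth_96047, 4.14 for Mycth_2059428 (2.13 without NoCarbon2 replicate 1), 4.59 for Mycth_89343, 2.18 for Mycth_37570 and -2.29 for Mycth_116553. The departure contains the change on which the rises and falls were chosen. All 12 of the largest falls were among the genes called. Their departures were -9.22 for Mycth_2301682 (-14.52 without G2X2 replicate 2), -10.09 for Mycth_2314555, -8.05 for Mycth_2300099, -6.79 for Mycth_2305838, -3.29 for Mycth_2305739, -5.80 for Mycth_2298494, -6.15 for Mycth_2308149, -6.05 for Mycth_2299605, -4.30 for Mycth_77631, -7.01 for Mycth_83193, -4.82 for Mycth_110871 and -5.73 for Mycth_2307949. Further genes chosen for their departure were Mycth_2307943 (6.35), Mycth_2295561 (4.98), Mycth_94171 (4.93), Mycth_2308120 (-7.61) and Mycth_2308000 (-7.42).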

How the results depend on the processing

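All 24 of the largest rises and falls and the called loci kept their direction and call under the 7 other settings and without each of the 4 libraries. The replicate block (1183 calls, 623 higher and 560 lower) moved no count given here by 1.5 times. Of the loci it changed 1 call, that of xyr-1, given above. The numbers did not pair the samples. Leaving out libraries gave 409 to 817 calls for G2X2 versus G2, 175 to 455 higher and 234 to 381 lower, 778 to 1986 departures, 19 to 28 of the 100 most abundant and 61 to 108 of the next 400 genes higher, 24 to 96 and 46 to 80 neighbour positions for rises and falls, 119 to 513 genes higher and 64 to 275 lower in both comparisons, 11 to 56 higher then lower and 34 to 96 lower then higher. DESeq2 gave 2 cellulase and LPMO loci higher, 292 neighbour positions for falls, 292 genes lower in both comparisons and 62 higher then lower. Plate libraries only gave 106 neighbour positions for rises and 20 genes higher then lower. The contrasted groups alone gave 3 cellulase and LPMO loci higher, 286 neighbour positions for falls, 22 genes higher then lower, 804 departures and 1506 calls for X2 versus NoCarbon2. The causes were not tested.

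Some values not called turned sign. For gh1-1 this was -0.0105 with DESeq2 size factors or DESeq2, -0.0785 with upper-quartile scaling, -0.0101 with plate libraries only and -0.0113 with the contrasted groups only. Without each library in turn, gh1-1 lay between -0.198 and 0.26 (-0.0096 without G2X2 replicate 2), cbh-1 between -0.81 and 0.30, eg-2 between -0.21 and 0.64 (-0.0493 without G2X2 replicate 2), eg-45 between -0.73 and 0.16 (0.0372 without G2X2 replicate 1) and cdh between -0.14 and 1.07. The LPMO locus Mycth_79765 lay between -0.31 and 1.26, Mycth_46583 between -0.54 and 0.0237, Mycth_112089 between -1.37 and 0.0643, and cdt-1 between -0.0782 and 1.08. With 2 libraries a group, the precision of the loci not called is that of their intervals.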

Other observations

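Of the genes chosen for their departure from additivity, some were lower with each disaccharide than without carbon, yet higher in the mixture than with cellobiose. Mycth_94171 stood at 2912 and 1634 CPM without carbon, 156 and 90.1 CPM with cellobiose, 555 and 861 CPM with xylobiose, and 1202 and 1137 CPM in the mixture (3.25 ± 0.40 against cellobiose, edgeR adjusted p = 0.0003). Mycth_2295561 was at 27.3 and 48.2 CPM without carbon and at 3.10 and 2.93, 3.97 and 5.61, and 10.6 and 13.5 CPM in the same order. Mycth_2307943 was at 129 and 125 CPM without carbon and rose from 1.21 and 1.04 CPM with cellobiose to 4.72 and 4.16 CPM in the mixture (1.98 ± 0.33, edgeR adjusted p = 0.00168), near its 7.46 and 4.73 CPM with xylobiose.

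Mycth_2308000 had the reverse arrangement. It was at 1.07 and 0.935 CPM without carbon, 9.31 and 20.9 CPM with cellobiose, 37.2 and 19.3 CPM with xylobiose, and 1.69 and 3.27 CPM with both (-2.61 against cellobiose, edgeR adjusted p = 0.00463). Without G2 replicate 2 (-1.91) or G2X2 replicate 1 (-2.21) the gene was not called. Mycth_2308120 stood at 21.0 and 42.3 CPM with cellobiose and 2.24 and 0.644 CPM in the mixture (-4.45 ± 0.81, edgeR adjusted p = 0.0035).

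A count was found for 8770 and 8762 genes in the cellobiose libraries and for fewer, 8602 and 8631, in the mixture libraries. Among called genes, 6 had no count in either mixture library, and none had no count in both cellobiose libraries. The gene with the most reads, Mycth_2309542, had 35 and 104 counts with cellobiose and was at least 43.6-fold lower in the mixture, taking 3 counts over both libraries as the floor. The others, chosen after their values were seen, were Mycth_2057017, Mycth_2067426, Mycth_2110911, Mycth_2308276 and Mycth_98480, with bounds from 5.02-fold to 12.2-fold. These bounds cover counting error only. How many of all genes tested had no count in both libraries of a group was not taken, so the 6 are a description only.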
